A study of Nasonia vitripennis with 76 samples.

Results

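Among the 14613 genes with a TPM value (a level scaled for transcript length and for the library total) in the wasp *Nasonia vitripennis*, 200 genes known only by a LOC number stood far higher in heads than in abdomens of both sexes. They were taken from the 4169 LOC genes whose mean reached at least 20 TPM in each of the 8 head groups, as the 200 with the highest ratio of their lowest head group mean to their highest abdomen group mean plus 0.1 TPM. The genes were thus chosen by head and abdomen TPM, and the difference between the tissues is a description with no test. The remaining 3969 LOC genes at the same head threshold, and the 264 genes with a symbol of their own at that threshold, serve as references.

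All wasps came from the TRA line, which became polyploid after *transformer*, a gene of the sex determination cascade, was knocked down, and they were sampled at 1 day after emergence. Female heads came from 2N and 3N wasps of generation F2 and of generation F14, and male heads from 1N and 2N wasps of generation F3 and of generation F15, with 5 libraries in each of the 8 groups. The matching 8 abdomen groups held 5 libraries each, except F2 2N females and F3 2N males with 3 each, which makes 76 libraries in all. Wasps of an unmanipulated line were not analysed here, so every group shares the TRA background. The labels do not say whether libraries came from separate wasps, pools or rearings, and p-values measure only the spread between libraries.

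The head of a wasp holds the brain, the compound eyes and ocelli, the antennae with their olfactory neurons, and the muscles and cuticle of the mouthparts. Photoreceptors are filled with opsin and the machinery that turns light into a current, and neurons are rich in ion channels, receptors and proteins that fuse vesicles at synapses. The abdomen holds most of the gut, fat body and gonads, and only a small part of the nerve cord. Genes of the eye, the brain and the antenna are thus typical of RNA that is plentiful in heads and scarce in abdomens. In haplodiploid wasps unfertilised eggs usually give haploid males and fertilised eggs diploid females, so diploid males and triploid females carry 1 chromosome set more than usual. No source used here gives the function of the 200 LOC genes, so no roles are named for them.

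Total counts ran from 14.2 to 60.1 M reads per library with a median of 21.6 M. A34, a library labelled as a head of F2 3N females, matched an abdomen of the same group, A36, at r = 0.995 across genes and its own group at a mean of 0.694. It held 0 TPM of the opsin *Lop1*, which ran from 964 to 22908 TPM in the other 39 head libraries, and 823 TPM of the germ plasm gene *oskar*, which stayed between 0.70 and 34.5 TPM in those 39. A34 was left out of every head value and test, except where stated. A35, of the same group, was closest to A2A of F3 1N males (r = 0.967, against a mean of 0.924 with the other 3 heads of its group, A34 left out), and values without it are given where they matter. *Lop1* and the clock neuropeptide gene *Pdf* were at most 4.8 and 2.75 TPM in any of the 36 abdomens, so the head label held for the other 39 head libraries.

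The ratios ran from 568 for LOC100121036 to 6.74 for LOC100123527, the last gene taken, and the first gene not taken, LOC100119171, stood at 6.72. The head advantage was at least 100-fold for 7 genes, at least 20-fold for 22 and at least 10-fold for 107. The median ratio was 10.3, against 0.565 for the other LOC genes at the head threshold and 0.669 for the named genes. The list thus starts with genes that were all but missing from abdomens and ends with genes that abdomens also held. At one end 9 genes stayed under 1 TPM in every abdomen group mean, and at the other 7 genes passed 100 TPM in at least 1 of them.

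LOC100121036 led the ratio with head group means of 114 TPM or more and abdomen group means of at most 0.10 TPM. LOC100116789 (ratio 427), LOC100115165 (306), LOC103315529 (259), LOC107981322 (234), LOC100120898 (179) and LOC100124184 (120) followed, and LOC107981062 (73.05), LOC100122708 (46.8) and LOC103315788 (46.7) completed the first 10. For 5 of the 7 genes past 100-fold the lowest head group was F14 3N females, which decided their ratio. The same ratio or higher was found for 12 of the 264 named genes, which are examples and give no role to the LOC genes. They were *Lop1*, a long-wavelength opsin, *Pdf*, the histamine-gated chloride channel gene *HisCl1*, the nitric oxide synthase gene *Nos*, the nicotinic acetylcholine receptor subunits *nAChRa1* and *nAChRa11*, the vesicle fusion ATPase gene *Nsf*, the neuropeptide receptor gene *Acpr*, the cuticle protein gene *CPR48*, and *NV_30029*, *NV_30142* and *NV_30145*. *Lop1* stood at 1210-fold and *Pdf* at 278-fold.

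**Figure D1:**
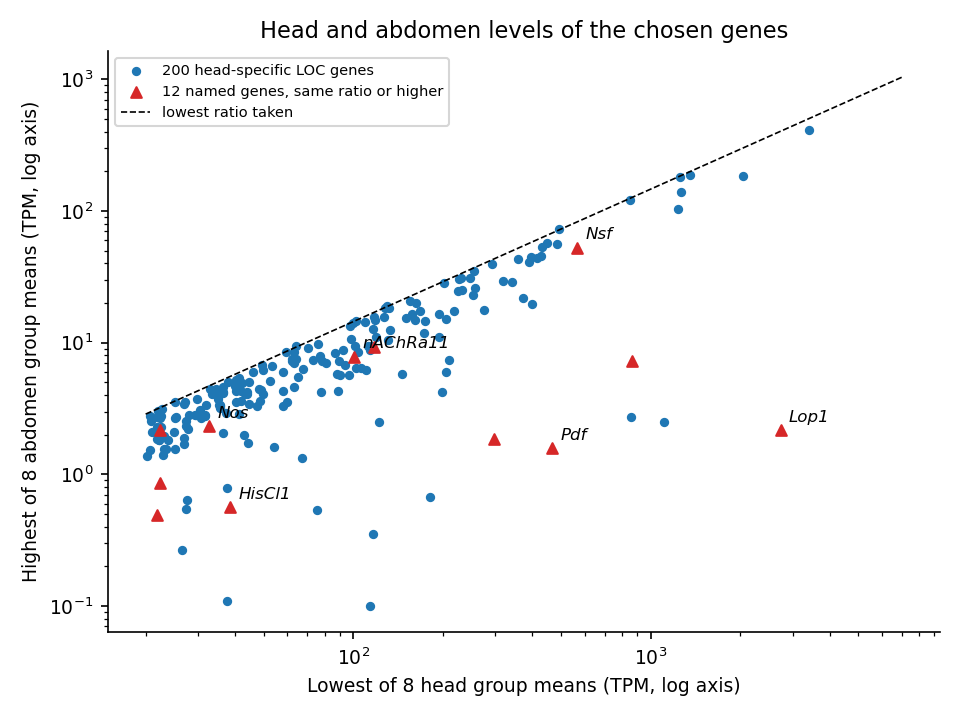
Lowest of the 8 head group means against the highest of the 8 abdomen group means, both in TPM on log axes, for the 200 LOC genes (blue) and the 12 named genes at the same ratio or higher (red), with the lowest ratio taken as a dashed line. The genes reach from the line at 6.74-fold down to LOC100121036 at 568-fold, and *Lop1* lies farther from it than any of them.

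By level the leading genes were others. LOC100679541 had the highest mean over the head groups at 6377 TPM, followed by LOC100115165 at 4692, LOC100216354 at 4033, LOC116417409 at 2295 and LOC100679800 at 2028 TPM. These 5 genes held 30.1% of the summed head level of all 200, and 11 genes reached 1000 TPM. The median gene stood at 126 TPM, against 71.6 TPM for the other LOC genes at the threshold and 151 TPM for the named ones. Of the 200 genes 196 are listed as protein-coding by RefSeq (assembly Nvit_psr_1.1) and 4 as lncRNA, which are LOC100679325, LOC103316525, LOC116415951 and LOC116416892.

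Together the 200 genes took 7.88% ± 0.40 (SD, n = 5) of all TPM in F2 2N female heads and 7.37% ± 0.42 (n = 4) in F2 3N female heads. The share was 6.48% ± 0.38 in F14 2N and 6.71% ± 0.76 in F14 3N female heads (n = 5 each). Male heads stood at 5.97% ± 0.31 (F3 1N), 5.90% ± 0.08 (F3 2N), 5.15% ± 0.71 (F15 1N) and 6.18% ± 0.56 (F15 2N), again with n = 5. The F2 2N females, from 7.34% to 8.28%, lay above all libraries of F14 females and of males. Abdomen means ran from 0.0345% in F2 2N females to 0.308% in F3 2N males, and male abdomens lay above those of the same period's females in every pair of group means. F3 2N males gave the highest abdomen mean for 152 of the 200 genes, so 3 libraries set the ratio of most members. In bulk tissue, fewer cells of a type and less RNA per cell cannot be told apart.

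**Figure D2:**
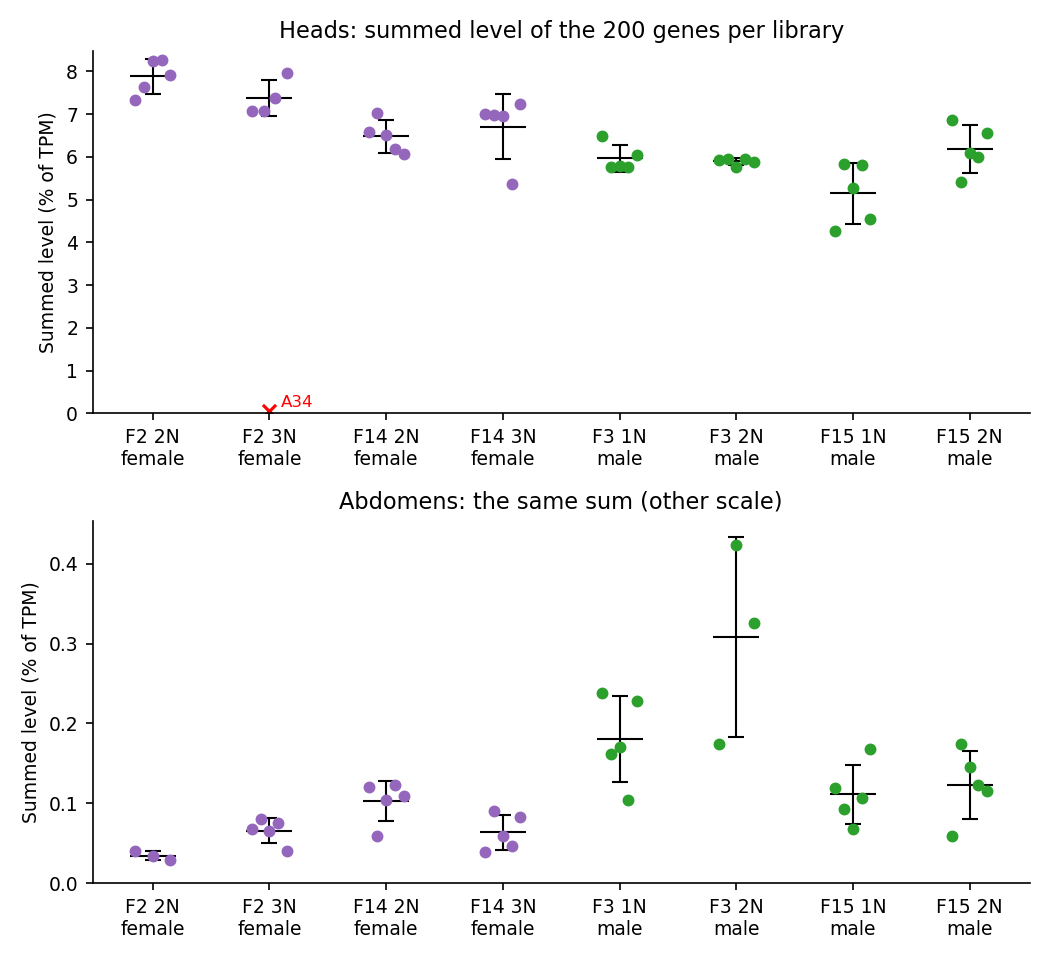
Summed level of the 200 genes in percent of all TPM, per library, for heads (upper panel) and abdomens (lower panel, with a scale of its own), with the group mean and SD as bars. Heads lie between 4.27% and 8.28% apart from A34 (cross, 0.053%, left out of the mean), and abdomens do not pass 0.424%.

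Within heads these genes varied more than others. The ratio of the highest to the lowest head group mean had a median of 2.43, against 1.84 for the other LOC genes at the threshold, and it was at least 2 for 150 genes, at least 5 for 19 and at least 10 for 9. The highest group was F2 2N females for 84 genes and F14 3N females for 67, and the lowest was F15 1N males for 136. For the other LOC genes at the threshold these were 21.7%, 18.8% and 33.8%. The most variable was the lncRNA LOC116415951 (51.7-fold), followed by LOC100679800 (33.1), LOC100121079 (19), LOC100679260 (11.9) and LOC100679943 (11.3). The most even were LOC100678404 (1.41), LOC103317435 (1.51), LOC100119624 (1.53), LOC100115960 (1.54) and LOC100119330 (1.56).

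LOC116415951 shows how far a level could move. Its TPM was 3257, 3555, 4789.5, 3740.4 and 3611 in the 5 F2 2N female heads and 603, 673, 706, 413 and 966 in the F14 2N female heads. In F15 1N male heads it was 42.1, 13.6, 181, 19.4 and 111. These 3 groups did not overlap, and within F15 1N males the highest library was over 10 times the lowest. LOC116415951 is also 1 of the 2 shortest members by counts per TPM (0.0851 of the median gene, with LOC103315788 at 0.0816), and that measure was itself 1.24 times higher in its highest head group than in its lowest. LOC100678404 in contrast kept to 176 to 243 TPM in F2 2N females, 155 to 193 TPM in F14 2N females and 145 to 229.5 TPM in F3 2N males.

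Counts per TPM follow the length of a transcript that can be sequenced, and by this measure the members were long. For the 199 members with a value the median was 1.65 times that of the median gene, against 0.938 for the other LOC genes at the threshold, and 145 of the 199 were longer than the median gene. More than 4 times the median gene was reached by 6.53% of the members and by 1.98% of the other LOC genes. Members under 0.25 times it made up 5.53%, close to the 5.60% of the other LOC genes, and these short ones included LOC116415951, LOC100679260, LOC100116789, LOC100216354, LOC107981062, LOC116417409 and LOC100679800.

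With all libraries but A34, the ploidy comparison with the most called genes was that of F15 males, the last male generation sampled, with more genes called higher in 2N than in 1N heads. By edgeR's quasi-likelihood test with Benjamini-Hochberg adjustment over all 10943 genes tested, 45 of the 200 genes were higher in 2N and 1 was lower at an adjusted p below 0.05. Over all genes 2.18% were called higher and 1.07% lower. Of the other LOC genes at the head threshold 114 of 3969 were higher and 47 lower, and of the 264 named genes 4 and 3. The median log2 difference of the 200 genes was 0.43, against 0.01 over all genes tested, and 172 of 200 lay above 0. In TPM all 5 of the 2N libraries exceeded all 5 of the 1N libraries for 97 of the genes, or 48.5%, and 13.1% of all genes did so, while 2 lay wholly below against 0.905% of all genes.

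LOC107981196 had 160.0, 155, 178, 159.8 and 157 TPM in F15 1N heads and 341, 278, 340.4, 356 and 290.1 TPM in F15 2N heads. The groups did not overlap, and the log2 difference was 0.79 ± 0.17 (SE, adjusted p = 0.0171). LOC100116683 had 36.95, 56.9, 48.7, 45.3 and 28.9 TPM in 1N and 111, 69.1, 94.4, 67.2 and 80.6 TPM in 2N heads. Here too every 2N head was above every 1N head, at a log2 difference of 0.77 ± 0.15 (adjusted p = 0.0108). LOC100679622 went from 32.1, 26.3, 35.4, 38.9 and 34.3 TPM to 64.3, 57.02, 62.1, 72.1 and 58.9 TPM, again without overlap, at 0.71 ± 0.18 log2 (adjusted p = 0.0308). LOC100118056 differed by 0.72 ± 0.18 log2 (adjusted p = 0.0369), with 17.9 to 25.7 TPM in 1N and 30.2 to 48.6 TPM in 2N heads. LOC107981196 lost the call without A81, A83 or A84, LOC100118056 without A3, A72, A73, A74, A75, A81, A83, A84 or A85, and LOC100679622 without A1A, A3, A71, A72, A75, A81, A82, A83, A84 or A85. LOC100116683 kept it without any single library.

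The exception was LOC100124184, the seventh gene by head ratio. It had 556, 621, 571, 561 and 485 TPM in F15 1N heads and 356, 253, 363, 323 and 306 TPM in F15 2N heads, and fell by 1.00 ± 0.23 on the log2 scale (adjusted p = 0.0209). Without A81, A84 or A85 its adjusted p rose just above 0.05.

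Of the 12 named genes at the same ratio or higher, none was called in this comparison, at a median log2 difference of 0.27. The summed level of the 4 neuron markers *Syt1*, *Para*, *LCCH3* and *nAChRa10* ran from 183 to 247 TPM in F15 1N heads and from 263 to 394 TPM in F15 2N heads, without overlap and with none of the 4 at 0. Most of this sum was *Syt1*, whose own ranges overlapped, at 134.8 to 188.6 TPM in 1N and 187.1 to 291.8 TPM in 2N heads. None of the 11 nicotinic receptor subunits tested was called, at a median log2 difference of 0.39, and none of the 90 odorant receptors or 23 cuticle protein genes was called. The muscle marker *Tm1* ran from 709 to 1565 TPM in 1N and from 608 to 1074 TPM in 2N heads. The cuticle markers *apd-3* and *CPR37* summed to 1.06 to 11.3 TPM in 1N and to 0.65 to 2.11 TPM in 2N heads. The 10 most abundant genes of a library took 12.7% to 14.99% of TPM in 1N and 9.21% to 10.8% in 2N heads. The part of these in the ploidy difference was not tested.

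The number of genes called in F15 males depended on single libraries, from 16 without A81 to 62. It fell by more than 1.5 times also without A84 (18), A83 (23), A85 (23), A75 (29) or A72 (30), and in each of these fits at most 1 gene was called lower. Without A81 or A84 it was below the counts of F2 females (21) and F3 males (20). The shares over all genes without these libraries are not given, so whether other genes lost calls alike cannot be judged here.

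In F3 males, the earlier generation, the same contrast did not show this rise. Only 2 genes were called higher in 2N and 18 lower, where all genes gave 5.24% and 6.74%, and the median log2 difference was -0.08 against -0.01 over all genes. The difference between the 2 generations was tested directly as an interaction, late minus early ploidy difference. It was positive for 49 of the 200 genes and negative for 1, with a median of 0.51, while over all genes 3.93% were positive and 4.72% negative at a median of 0.07. The interaction count ran from 24 (without A3) to 57 when single libraries were left out, and it fell by more than 1.5 times also without A12, A14, A1A, A81, A82, A83, A84 or A85. The F3 1N heads were uneven, with *CPR48* alone at up to 14.2% of TPM in A2A.

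LOC100121079 gave the largest rise in F3 males. It had 162, 177, 40.6, 90.1 and 128 TPM in F3 1N heads and 833, 989, 471, 381 and 1177 TPM in F3 2N heads, a log2 difference of 2.43 ± 0.39 (adjusted p = 0.000828) without overlap. In F15 males both ploidies were high, with 504 to 948 TPM in 1N and 521 to 1032 TPM in 2N heads, and the interaction was -2.69 ± 0.54 (adjusted p = 0.00603).

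LOC116415951 went the other way, from 1520.0, 1825, 1482, 3476 and 3387 TPM in F3 1N heads to 362, 93.2, 299, 536 and 340.3 TPM in F3 2N heads. All 2N heads lay below all 1N heads, and the gene fell by 3.04 ± 0.57 on the log2 scale (adjusted p = 0.00224), with an interaction of 4.11 ± 0.78 (adjusted p = 0.00411). LOC107981196, which had the highest called difference in F15 males, had 293, 234, 455, 403 and 426 TPM in F3 1N and 349, 252, 380.4, 342 and 152 TPM in F3 2N heads. These groups overlapped, and its interaction was 1.33 ± 0.24 (adjusted p = 0.00335).

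Other F3 calls were smaller. LOC100678485 rose from 341 to 573 TPM in 1N to 632 to 925 TPM in 2N heads (0.66 ± 0.15 log2, adjusted p = 0.00877). LOC100678055 fell from 168 to 315 TPM to 91.9 to 143 TPM (-1.38 ± 0.27 log2, adjusted p = 0.00319), and neither gene's groups overlapped. LOC100679943 (-1.07 ± 0.28 log2, adjusted p = 0.0175) and LOC100122708 (-1.03 ± 0.27 log2, adjusted p = 0.0187) were also lower in 2N heads, and lost the call without A14, as LOC100679943 did without A12. The direction of the whole F3 count was not stable. It was 24 higher and 7 lower by limma on log2(TPM + 1), where the median of all genes itself moved from -0.01 to 0.24, and 26 higher and 36 lower without A1A, A2A and A15A. The shares over all genes in these fits are not given, so whether other genes shifted alike cannot be judged here. The F3 count fell to 9 without A12, 10 without A14, 11 without A3 and 13 without A1A.

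**Figure D3:**
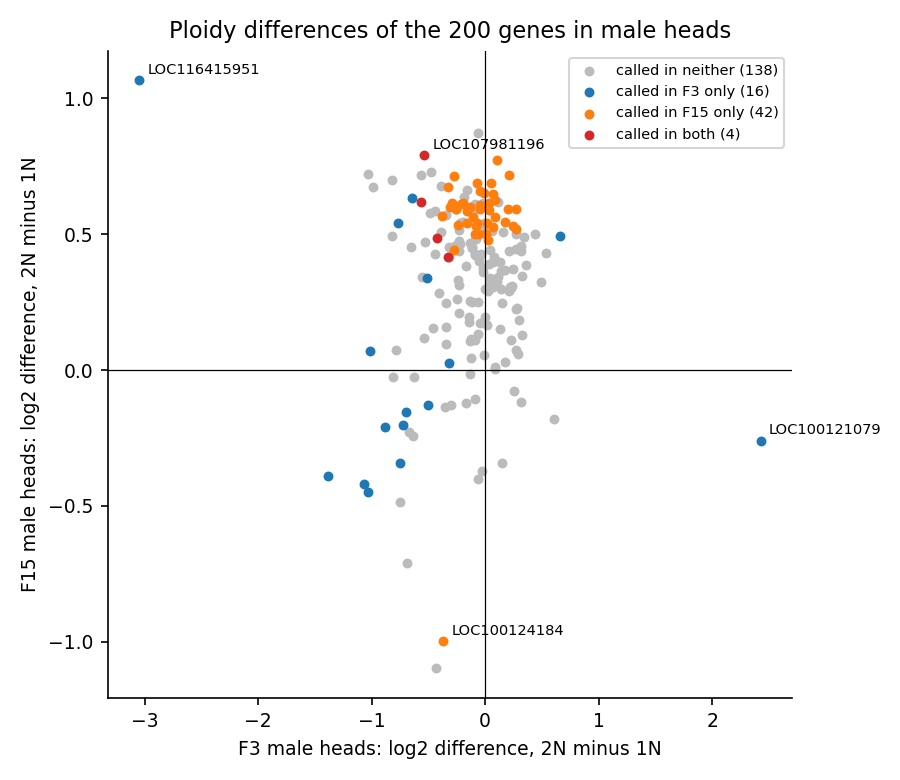
Log2 difference between 2N and 1N male heads in generation F3 (horizontal) and generation F15 (vertical), 1 point per gene, coloured by where the gene was called. Of the 200 genes 172 lie above 0 in F15 and 72 lie above 0 in F3, and LOC116415951, LOC100121079, LOC107981196 and LOC100124184 are marked.

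In female heads few of the genes differed between 3N and 2N. In F2 females 17 genes were higher and 4 lower in 3N, against 3.63% and 2.18% of all 10987 genes tested, with a median log2 difference of -0.04. In F14 females 12 were higher and 0 lower, against 2.38% and 1.18% of all genes, with a median of 0.06. There 40 members had an unadjusted p below 0.05. The share of all genes below that unadjusted p is not given, so whether the members stand out by it cannot be judged. No member was called in both female generations, which share no libraries. Over all genes 0.0364% were higher in 3N in both generations and 0.0182% were lower in both. Another 0.0546% were higher in F2 and lower in F14, and 0.0546% the reverse. Such calls were thus rare among all genes, and their absence here does not set the members apart. TPM ranges did not overlap for 20 genes above and 16 below in F2 (6.8% and 8.79% of all genes), and for 13 above and 0 below in F14 (3.28% and 0.737%).

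In F2 females LOC100679323 had 60.6, 46.8, 68.2, 65.3 and 47.2 TPM in 2N and 171, 137, 115 and 159.8 TPM in the 4 libraries of 3N heads. The groups did not overlap, at a log2 difference of 1.43 ± 0.34 (adjusted p = 0.0238). In F14 females the same gene had 27.7 to 81.7 TPM in 2N and 11.3 to 46.5 TPM in 3N heads, and its interaction of -2.57 ± 0.48 log2 (adjusted p = 0.00974) was the lowest among the genes. LOC100679260 (1.2 ± 0.22 log2, adjusted p = 0.00665), LOC107981062 (0.94 ± 0.24 log2, adjusted p = 0.0286) and LOC107980969 (0.93 ± 0.20 log2, adjusted p = 0.0172) were also higher in F2 3N heads. The call of LOC100679323 was lost without A22 or A25, and that of LOC107981062 without A22, A23, A25 or A35.

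The genes lower in F2 3N heads were LOC100121850, LOC100121019, LOC100121489 and LOC100680230. LOC100121850 had 75.4, 63.4, 78.9, 69.4 and 63.01 TPM in 2N and 39.6, 41.5, 46.5 and 11.5 TPM in 3N heads, and fell by 0.99 ± 0.23 on the log2 scale (adjusted p = 0.0209). Its interaction with generation was 1.42 ± 0.31 (adjusted p = 0.0178). LOC100121019 fell by 0.52 ± 0.09 on the log2 scale (adjusted p = 0.00607), from 404 to 498 TPM to 221 to 342 TPM. LOC100121489 (-0.43 ± 0.11 log2, adjusted p = 0.0331) lost the call without A22, A23, A24, A25, A32 or A35. LOC100680230 (-0.30 ± 0.07 log2, adjusted p = 0.0282) lost it without A21, A23 or A24.

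In F14 females LOC100121610 had 33.8, 46.6, 33.1, 38.8 and 36.4 TPM in 2N and 87.9, 85.98, 72.9, 55.5 and 50.2 TPM in 3N heads. Every 3N head was above every 2N head, at a log2 difference of 0.74 ± 0.11 (adjusted p = 0.00561), and the call held without any single library. LOC100679337 (0.86 ± 0.19 log2, adjusted p = 0.0197), LOC100679580 (0.68 ± 0.15 log2, adjusted p = 0.0239) and LOC103315930 (0.58 ± 0.15 log2, adjusted p = 0.0435) were higher too. The call of LOC100679337 was lost without A51, A61, A64 or A65, that of LOC100679580 without A53, A61, A63 or A64, and that of LOC103315930 without any 1 of A22, A23, A25, A31, A33, A51, A52, A53, A61, A63, A64 and A65. With A34 kept, no gene was called in either female ploidy comparison. When F2 females were fitted alone, 1 gene was called, and without A25 it was 11. The F14 count was 37 without A55 and 33 without A35, against 1 without A64, 2 without A61, 3 without A51, 4 without A52 or A63, 5 without A53 or A65 and 7 without A22.

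Ploidy by generation in females was positive for 10 genes and negative for 10, against 2.7% and 3.77% of all genes. It was positive for 28 and negative for 12 without A35, and positive for 21 and negative for 5 by limma on log2(TPM + 1). Across the 4 ploidy comparisons 82 of the 200 genes (41.0%) were called at least once, against 22.6% of the 10658 genes tested in all 4 and 24.8% of the other LOC genes at the head threshold. Of the 45 genes higher in F15 2N males 4 were lower in F3 2N males, 4 were higher and 2 lower in F2 3N females, and 5 were higher in F14 3N females. Over all genes 239 were higher in F15 2N males, and 10 of them were lower in F3 2N males. Of those also tested in females, 11 were higher and 8 lower in F2 3N females, and 18 were higher in F14 3N females. As shares of all genes tested in both comparisons, called or not, these 4 combinations made up 0.0914%, 0.103%, 0.0751% and 0.169%.

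Most of the genes differed between generations. In female heads 70 were higher and 72 lower in F14 than in F2, where all genes gave 27.4% and 32.7%, so the count was near that of other genes. In male heads 14 were higher and 105 lower in F15 than in F3, where all genes gave 23.4% and 28%, and the median log2 difference was -0.35 against -0.03 over all genes. The labels give no batch, and generation and any difference in how the libraries were made cannot be told apart.

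The female and male comparisons share no libraries, and 59 of the 200 genes were called higher in F14 females and lower in F15 males. The same combination was found for 14.6% of the 10658 genes tested in both. It was found for 19.1% of the other LOC genes at the head threshold and for 34.1% of the named ones, so it was not confined to the members. Of the 70 members higher in F14 females, 59 were lower in F15 males, 2 were higher and 9 were not called. Over all genes higher in F14 females these numbers were 1551, 278 and 1123. Of the 105 members lower in F15 males, 59 were higher in F14 females, 19 were lower and 27 were not called. Over all genes lower in F15 males these numbers were 1551, 357 and 1124. Subunits of oxidative phosphorylation, the respiratory chain of mitochondria, were higher in F14 females for 59 of 62 tested and lower in F15 males for 44 of 63. Among the members, another 9 were lower in females and higher in males. A further 19 members were lower in both, 2 were higher in both and 28 were called in neither. The shares of all genes tested in both were 12.8%, 3.35%, 2.61% and 21.2%, in the same order. By limma on log2(TPM + 1) the female count was 52 higher and 82 lower, with the median of all genes at -0.16 in place of -0.04.

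LOC100679800 showed the largest fall in females. It ran from 1132 to 5859.9 with a median of 4206 TPM over the 9 heads of F2 females and from 40.8 to 329 with a median of 162 TPM over the 10 heads of F14 females, and fell by 4.32 ± 0.33 on the log2 scale (adjusted p = 1.77e-08). In males it ran from 479 to 1657 with a median of 984 TPM in F3 and from 2449 to 3309 with a median of 3012 TPM in F15, and rose by 1.51 ± 0.14 log2 (adjusted p = 1.63e-07). Neither pair of ranges overlapped. LOC103317242 (1.80 ± 0.43 log2, adjusted p = 0.00174) and LOC107981322 (2.30 ± 0.19 log2, adjusted p = 4.44e-08) were higher in F15 males as well, and so was LOC100115165 (1.55 ± 0.26 log2, adjusted p = 8.72e-05).

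LOC100679260, whose span overlaps that of LOC116416031 so that reads may be shared, showed the opposite pattern. It ran from 33.6 to 136 with a median of 48.1 TPM in F2 females and from 225 to 357 with a median of 295 TPM in F14 females, a log2 difference of 2.55 ± 0.16 (adjusted p = 1.62e-09). In males it ran from 65.4 to 207 with a median of 102 TPM in F3 and from 18.4 to 44.9 with a median of 28.4 TPM in F15, and fell by 2.10 ± 0.25 on the log2 scale (adjusted p = 2.10e-06). Again neither pair of ranges overlapped. LOC107981062 moved alike, at 1.48 ± 0.17 log2 in females (adjusted p = 9.83e-07) and -1.39 ± 0.20 log2 in males (adjusted p = 1.80e-05). LOC100216354 and LOC107980969 were higher in F14 females, at 1.57 ± 0.12 log2 (adjusted p = 9.40e-09) and 1.39 ± 0.14 log2 (adjusted p = 3.67e-07), and LOC116415951 and LOC100122054 were lower in F15 males, at -2.84 ± 0.40 log2 (adjusted p = 1.34e-05) and -1.41 ± 0.15 log2 (adjusted p = 5.19e-07).

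Several of the genes with the highest head ratios were among those lower in F14 females. LOC100121036, the first by ratio, had 1112, 1047, 1160.1, 1200.5 and 1189 TPM in F2 2N, 187, 314, 142, 141 and 199.7 TPM in F14 2N and 19.96, 32.4, 74.7, 40.4 and 401 TPM in F14 3N heads. Its generation difference was -2.47 ± 0.46 log2 (adjusted p = 0.000191), and within F14 3N females A55 stood far above the other 4 libraries. LOC100120898 (-2.61 ± 0.41 log2, adjusted p = 3.71e-05) and LOC100679943 (-2.39 ± 0.37 log2, adjusted p = 3.14e-05) followed the same order of these 3 group means.

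**Figure D4:**
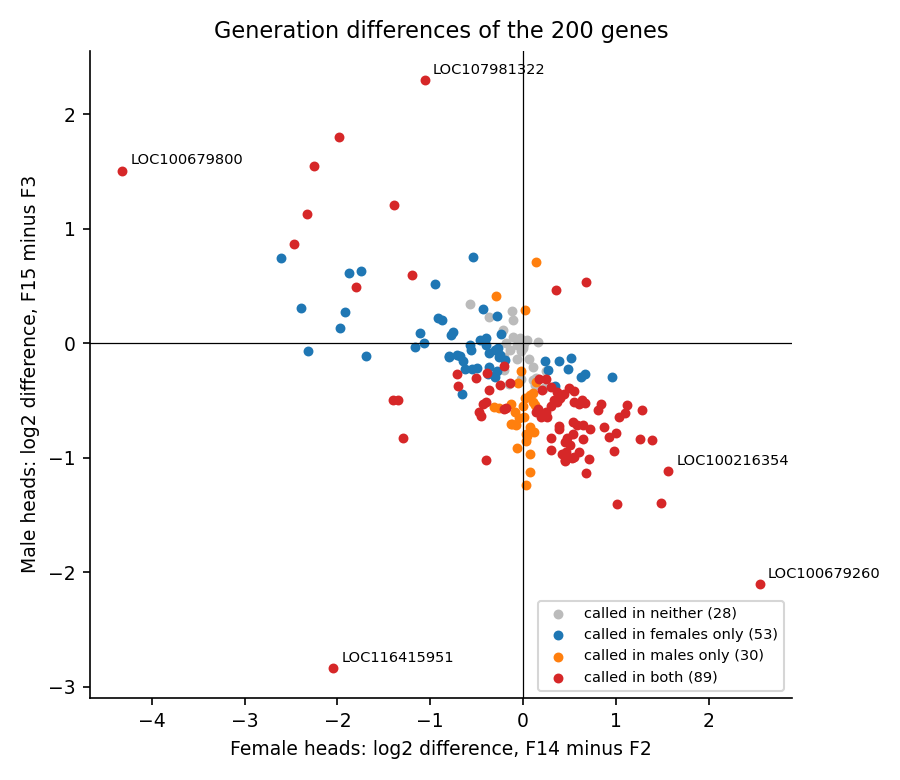
Log2 difference between late and early generations in female heads (F14 minus F2, horizontal) and male heads (F15 minus F3, vertical), 1 point per gene, coloured by where the gene was called. The lower right part holds 59 genes called higher in females and lower in males, with LOC100679260 farthest out, and LOC100679800 lies at the far upper left.

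Named head genes moved in part like the members, by the same edgeR test. Of the 12 named genes at the same ratio or higher, 6 were higher and 1 lower in F14 females. In F15 males 2 of the 12 were higher and 5 lower. *HisCl1*, *nAChRa1*, *nAChRa11*, *NV_30142* and *NV_30145* were not called in females (adjusted p from 0.209 to 0.928). Of 11 nicotinic receptor subunits tested 4 were higher and 4 lower in F14 females, and 2 higher and 5 lower in F15 males. *Nos* was higher in F14 females (0.67 ± 0.07 log2, adjusted p = 4.54e-07) and lower in F15 males (-0.60 ± 0.11 log2, adjusted p = 0.000156), and so was the synaptic vesicle gene *Syt1* (0.56 ± 0.10 and -0.42 ± 0.13 log2, adjusted p = 9.56e-05 and 0.00958). *Pdf* did the same (0.60 ± 0.24 and -0.71 ± 0.20 log2, adjusted p = 0.0397 and 0.00645). The same held for the neuron markers *LCCH3*, a chloride channel subunit gene (0.50 ± 0.09 and -0.99 ± 0.09 log2, adjusted p = 0.000158 and 1.28e-07), and *nAChRa10* (1.55 ± 0.09 and -1.37 ± 0.12 log2, adjusted p = 5.22e-10 and 7.67e-08). The fourth neuron marker, the sodium channel gene *Para*, was lower in F14 females (-1.23 ± 0.24 log2, adjusted p = 0.000314) and was not called in F15 males (0.29 ± 0.32 log2, adjusted p = 0.472). *Lop1* was lower in F14 females (-1.06 ± 0.42 log2, adjusted p = 0.0368). Of 143 odorant receptor genes tested 124 were lower in F14 females and 1 was higher, at a median log2 difference of -4.51, and among 90 tested in males 9 were higher and 2 lower in F15. The olfactory marker *Or1* ran from 1.33 to 224 TPM over F2 3N heads and from 0.52 to 3.74 TPM over F14 3N heads, and the muscle marker *Tm1* lay at 598 to 669 TPM in F2 2N and at 1714 to 3425 TPM in F14 2N heads. The part of these cell type markers in the generation differences was not tested.

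Between the sexes, compared at 2N, the genes were more often lower in males. In the early pair, F3 males against F2 females, 87 were lower and 34 higher in males, against 26.4% and 26.6% of all 11020 genes tested, and the median log2 difference was -0.20 against 0.01. In the late pair, F15 males against F14 females, 99 were lower and 39 higher, against 28.7% and 32% of all genes, at a median of -0.31 against 0.05. In the early pair the references leaned the other way, with 25.6% of the other LOC genes at the head threshold and 18.2% of the named ones lower in males and 32.8% and 46.2% higher. In the late pair 39.1% of the other LOC genes and 56.1% of the named ones were lower in males too, with 25.3% and 21.97% higher. By limma on log2(TPM + 1) the late split was 66 lower and 57 higher, with the median of all genes at 0.27. The sexes of each pair come from different generations, and sex and generation cannot be told apart within a pair.

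The early and the late pair share no libraries. While 26 genes were lower in males in both and 3 were higher in both, 29 were lower early and higher late and 26 were higher early and lower late. Over all 11020 genes 3.48% were lower in both and 5.05% higher in both, 13.1% were lower early and higher late and 13.1% the reverse. The sex difference itself differed between the pairs for 141 of the 200 genes, 70 upward and 71 downward, and over all genes 64.2% did so, 33.8% upward and 30.4% downward. By limma on log2(TPM + 1) these were 83 and 47.

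LOC100679800 had 4244, 4764, 5859.9, 3907 and 5285 TPM in F2 2N females and 1126, 793, 1546, 1657 and 921 TPM in F3 2N males. In the late pair it had 219, 156, 237, 148 and 197.2 TPM in F14 2N females and 3077, 3053, 3021, 3228 and 2459 TPM in F15 2N males. All males were below all females in the early pair (-1.94 ± 0.19 log2, adjusted p = 1.48e-07) and above them in the late pair (3.65 ± 0.20 log2, adjusted p = 3.47e-11). LOC100679260 reversed the other way, from 1.61 ± 0.19 log2 early (adjusted p = 1.46e-06) to -3.56 ± 0.21 log2 late (adjusted p = 6.14e-11). Late females held 357, 340.1, 314, 305 and 284 TPM of it and late males 27.2, 26.03, 44.9, 35.6 and 34.7 TPM.

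LOC100121079 was higher in males in both pairs. Early females had 171, 218, 185, 170.1 and 217 TPM and late females 54.9, 36.5, 37.6, 49.95 and 27.8 TPM, below every 2N male, whose values ran from 381 to 1177 TPM early and from 521 to 1032 TPM late. The log2 differences were 2.06 ± 0.29 (adjusted p = 1.34e-05) and 3.90 ± 0.32 (adjusted p = 7.16e-09). LOC116415951 was lower in males in both, by -3.41 ± 0.34 log2 early (adjusted p = 3.16e-07) and -2.25 ± 0.33 log2 late (adjusted p = 9.74e-06).

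Among other genes higher in early males, the lncRNA LOC103316525 had 27.99 to 34.3 TPM in females and 60.6 to 77.7 TPM in males (1.21 ± 0.13 log2, adjusted p = 4.22e-07). LOC107981062 was higher there too (1.58 ± 0.21 log2, adjusted p = 4.47e-06). LOC103317242 (-2.97 ± 0.44 log2, adjusted p = 2.45e-05) and LOC100120713 (-1.99 ± 0.39 log2, adjusted p = 0.000364) were lower in early males. In the late pair LOC103315529 (2.16 ± 0.34 log2, adjusted p = 2.17e-05) and LOC100679866 (2.13 ± 0.24 log2, adjusted p = 3.70e-07) were higher in males. LOC100216354 (-2.07 ± 0.13 log2, adjusted p = 1.31e-10) and LOC100122054 (-1.91 ± 0.11 log2, adjusted p = 6.25e-11) were lower in late males.

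Odorant receptor genes were lower in early males for 89 of 113 tested and higher for 1, and in late males higher for 42 and lower for 5. Of the 11 nicotinic receptor subunits 4 were lower and 2 higher in early males, and 5 lower and 4 higher in late males. The 4 neuron markers summed to 334 to 448 TPM in F2 2N females and 227 to 341 TPM in F3 2N males, and to 421 to 473 TPM in F14 2N females and 263 to 394 TPM in F15 2N males. Their part in the sex differences was not tested.

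A group of the genes followed the opsin *Lop1* from library to library. After the mean of each group was taken from the log2(TPM + 1) values of the 39 head libraries, 11 of the 200 genes had a Pearson r of at least 0.8 with *Lop1*, or 5.5%, against 0.428% of the other LOC genes at the threshold. That threshold was chosen after the values were seen, the points share their library's RNA makeup and depth, and no p is given. The highest were LOC100120898 (r = 0.958, Spearman's rho = 0.954), LOC100679837 (0.929 and 0.927), LOC100119443 (0.923 and 0.928), LOC100115165 (0.919 and 0.878) and LOC100122708 (0.905 and 0.905). LOC100121837, LOC100119367, LOC100678055, LOC100123311, LOC100121036 and LOC100117548 made up the rest. Without A35 and A55, the libraries highest in *Lop1* in their groups, 8 of the 200 stayed at 0.8. The group means taken off still included A35 and A55, so this count does not fully remove their influence. For *Pdf* the share was 2.0% of the members and 2.12% of the other LOC genes, and for *Syt1* no member reached 0.8. Without A35 and A55 1 member stayed at 0.8 for *Pdf*, and 2 members reached it for *Syt1*. In these counts too the group means had been taken with A35 and A55 included.

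In F14 3N females *Lop1* had 964, 1231, 2402, 1698 and 7378 TPM and LOC100120898 had 14.7, 15.6, 35.3, 23.4 and 99.3 TPM, in the same order of libraries. A55 was highest for both and A51 lowest for both. In F15 1N males *Lop1* had 1893, 8699, 7184, 9042 and 4514 TPM and LOC100120898 90.4, 573, 353, 412 and 234 TPM, with A71 lowest for both. In F2 2N females, with 5409.6, 8306, 7476, 10322 and 9812 TPM for *Lop1*, LOC100115165 had 6912, 8223, 8347, 9742 and 12238 TPM, and A21 was lowest for both.

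**Figure D5:**
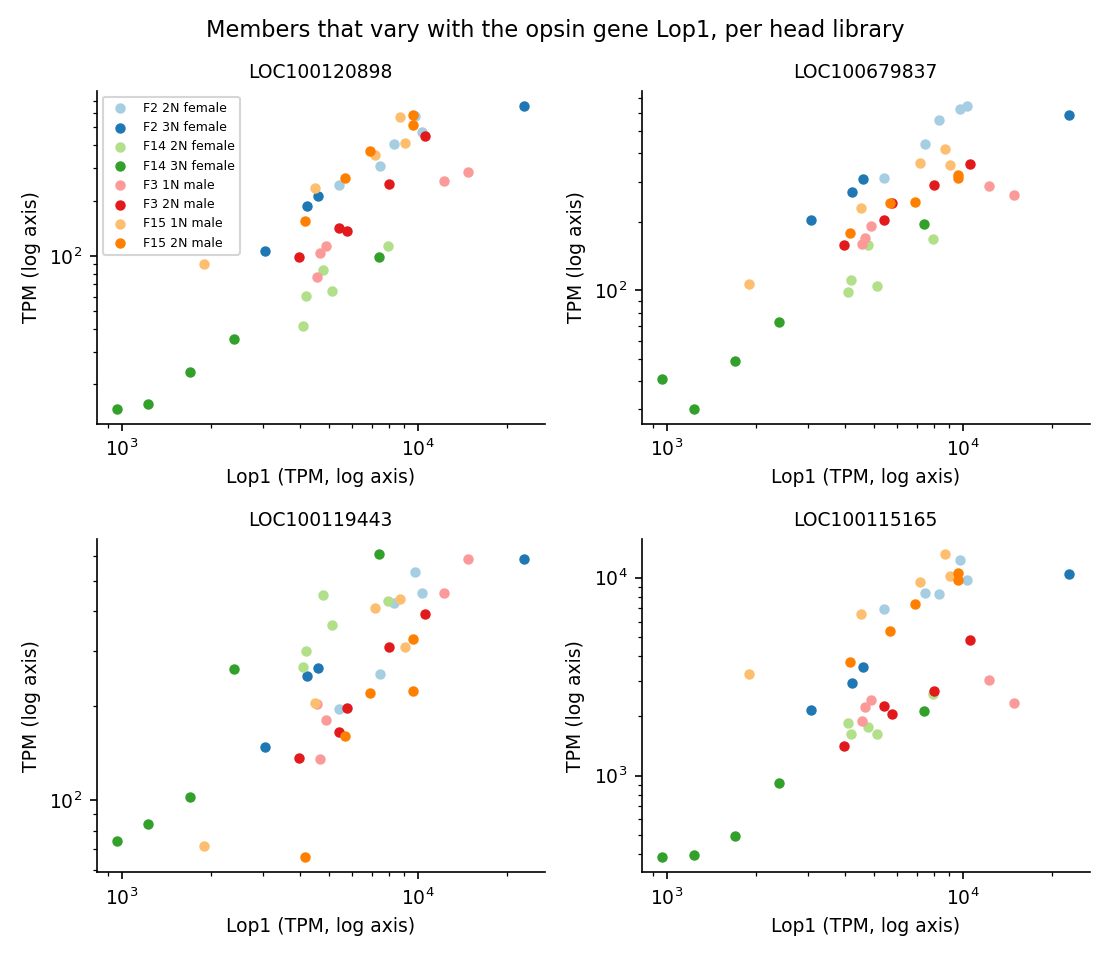
TPM of LOC100120898, LOC100679837, LOC100119443 and LOC100115165 against TPM of *Lop1*, both on log axes, 1 point per head library (39, without A34), coloured by group. Each gene rises with *Lop1*, at r from 0.919 to 0.958 within groups, and the libraries of F14 3N females except A55 lie at the lower left.

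At the other end 7 genes (3.5%) were called in none of the 8 comparisons between groups, against 9.4% of the 10632 genes tested in all 8 and 5.95% of the other LOC genes at the head threshold. They were LOC100115841, LOC100116789, LOC100117472, LOC100121983, LOC100678404, LOC100679474 and LOC103317650. LOC100116789, second by head ratio, is among them, and its libraries spread widely within groups. It had 2515, 1877, 2401, 2374 and 2013 TPM in F2 2N females and 1929, 3013, 1743, 1505 and 1924 TPM in F14 2N females, which overlap, and 404, 532, 775, 878 and 2935 TPM in F14 3N females, where A55 stood apart. A p that misses the threshold does not show that a gene was level. LOC100119330, among the 5 most even, kept to 291 to 358 TPM in F2 2N females and 177 to 248 TPM in F15 2N males.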

How the data were processed

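Polyadenylated RNA of head and abdomen libraries was extracted without DNase treatment, per the labels' protocols. Estimated counts per gene and TPM values, both as deposited by the authors, were made with STAR 2.7.11a and RSEM 1.3.1, per the submitters' processing notes. Neither the build and annotation nor the strand setting is stated in the sources used here. Because of this, overlapping and near-identical genes may share reads. TPM is relative, and total RNA per cell cannot be seen in it.

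TPM chose and described the members. Estimated counts (14621 genes) were rounded, scaled by TMM, filtered with filterByExpr and tested in R 4.3.3 with edgeR 4.0.16 (quasi-likelihood, robust setting). Female heads, male heads and 2N heads were fitted separately over their 4 groups, with A34 left out. Genes with a Benjamini-Hochberg adjusted p below 0.05 over all genes were called, and differences are log2 values with their SE. Alternatives were RLE factors, DESeq2 1.42.0, no low-count filter, limma 3.58.1 on log2(TPM + 1) of genes with a mean of at least 1 TPM, other library choices, and leaving out each library. In 75 of 76 libraries, gene ranks by TPM matched those by count best within the same library, and the exception, A66, is an abdomen. No 2 count columns were identical.

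The members and gene lists were chosen with earlier results of these data known. Named were the 10 highest ratios, the 5 highest levels, the edge of the list, the 4 highest and 4 lowest called genes of each comparison, and the 5 most and least variable genes. The *Lop1* group, the genes called nowhere and those given as examples of length or neighbours were added after their values were seen. A part of the rule on similar proteins could not be applied, since no protein sequences were at hand. The RefSeq table of Nvit_psr_1.1 was used for gene types and order only. The test was tried on simulated counts first. For F2 female ploidy, F3 male ploidy and the early sex pair it recovered 25%, 35% and 34% of changes of 1 log2 unit. Of changes of 2 log2 units it recovered 98%, 100% and 100%. Smaller changes were thus often missed there. The simulated spread was the same for every gene, so these rates need not hold for the members. Tables were handled with Python 3.11.15 and pandas 2.3.3.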

Additional observations from a re-analysis of the deposited data

Results flagged for a closer look

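For the summed level and the 14 leading genes over the 8 head groups, and the summed level over 6 abdomen groups, 126 groups of libraries were checked for 1 library far from the rest, and 19 were flagged. The critical values of the rule are set so that chance flags about 1 in 20 groups, a rate not measured in these data. The summed level was far below its group in A34 (0.053% of TPM) and in A54 of F14 3N females (5.36%).

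In F14 3N females A55 stood above its group for LOC100121036 (400.9 TPM), LOC100116789 (2935 TPM), LOC107981322 (811 TPM), LOC100120898 (99.3 TPM), LOC100124184 (162 TPM) and LOC100122708 (325.5 TPM), and A54 below it for LOC100679541 (5740 TPM). In F2 3N females A35 stood above its group for LOC100116789 (4197 TPM), LOC100115165 (10452 TPM) and LOC116417409 (3334 TPM), and below it for LOC100679800 (1132 TPM). In F14 2N females A62 stood above the others for LOC100116789 (3013 TPM), LOC100115165 (2596 TPM) and LOC100124184 (244 TPM). In males A3 of F3 1N was low for LOC100124184 (234 TPM), and A85 of F15 2N was high for LOC107981062 (69.8 TPM) and low for LOC100679800 (2459 TPM).

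By edgeR's interaction test, the ploidy difference of female heads moved upward from F2 to F14 for LOC100121850 (1.42 log2), LOC100679337 (1.2), LOC100118056 (1.03) and LOC100122256 (0.75). It moved downward for LOC100679323 (-2.57), LOC100679260 (-1.70), LOC100122054 (-1.01) and LOC100216354 (-0.98). With A34 kept, none of these 8 was called.

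In male heads the ploidy difference moved upward from F3 to F15 for LOC116415951 (4.11 log2), LOC107981196 (1.33), LOC100121036 (1.31) and LOC116418325 (1.31), and downward for LOC100121079 (-2.69). LOC100121036 lost this call in most of the fits without 1 library. The sex difference of 2N heads moved upward from the early to the late pair for LOC100679800 (5.60 log2), LOC103317242 (4.63), LOC100121036 (3.82) and LOC100121508 (3.60). It moved downward for LOC100679260 (-5.17), LOC107981062 (-3.0), LOC100216354 (-2.83) and LOC107980969 (-2.61).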

How the results depend on the processing

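No named result changed sign under any alternative, and 1803 of 1921 values kept their side of the threshold. Most of these values, 1492, came from leaving out 1 library, where 14 of the 76 named results lost the call at least once. With A34 kept 20 of 28 named results lost it, and with the compared groups fitted alone 9 of 23 did. The ploidy counts did not hold. Shares over all genes are not given for these fits, or for those that left out 1 library. Whether other genes shifted alike thus cannot be judged from these counts. In F2 females, 21 genes became 34 by DESeq2, 1 with the compared groups fitted alone and 0 with A34 kept. With A34 kept, 1 gene had an unadjusted p below 0.05 there. In F14 females, 12 became 19 by DESeq2, 23 by limma on TPM, 33 without A35 and 0 with A34 kept (0 also unadjusted). The female interaction count, 20, became 31 by DESeq2, 40 without A35 and 0 with A34 kept (0 unadjusted), and the female generation count, 142, became 30 with A34 kept. In F3 males, 20 became 13 without the low-count filter, 31 by limma, 62 without A1A, A2A and A15A and 9 fitted alone. In F15 males, 46 became 88 by limma, 77 without A1A, A2A and A15A and 73 fitted alone, and the male interaction count, 50, became 27 without the filter and 27 by limma. A head threshold of 50 TPM shared 110 of the 200 genes, and A34 kept moved the F2 3N summed share to 5.91%. The cause was not tested. Leaving out 1 library gave 11 to 30 (F2 ploidy), 1 to 37 (F14), 9 to 25 (F3), 16 to 62 (F15), 132 to 151 (female generation), 114 to 125 (male generation), 13 to 40 and 24 to 57 (interactions in females and males), 107 to 120 (early sex), 133 to 142 (late sex) and 134 to 149 (sex by period). The female interaction passed 1.5 times without A35 (40) or A55 (35), and fell to 13 without A52. RLE factors kept every count within 1.5 times. No paired analysis was possible because each library has a number of its own and the labels give no replicate numbers shared between groups.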

Other observations

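Some of the 200 genes lie side by side. In the gene order of Nvit_psr_1.1, 12 of them form 6 pairs of direct neighbours, chosen for mention after their values were seen. LOC116416031 and LOC100679260 have overlapping spans, with mean head levels of 758 and 125 TPM, as do LOC100119488 (154 TPM) with LOC100116797 (38.7 TPM) and LOC100119203 (54.96 TPM) with LOC100119624 (53.4 TPM). The other pairs are LOC116416892 with LOC100679866, LOC103317435 with LOC100679892, and LOC100123311 with LOC100123316. The values of overlapping genes may share reads, and how far they do was not tested.

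Neighbours did not always share a pattern. LOC100123311 had 160.4, 155, 315, 300.0 and 856 TPM in F14 3N females, where A55 stood above the rest, while its neighbour LOC100123316 had 651, 585, 619.8, 475 and 693 TPM there. LOC116416031 and LOC100679260 both had more TPM in every F14 2N female head than in any F2 2N female head. LOC116416031 ran from 549 to 671 TPM in F2 2N and from 1141 to 1321 TPM in F14 2N heads.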
